A study of Mus musculus with 6 samples.

Results

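The open chromatin described here lies in gene deserts, the long stretches of the mouse genome that are far from any protein-coding gene start. A desert interval is a called interval of accessible DNA whose summit, its point of highest signal, is more than 250 kb away from the nearest start of any protein-coding gene annotated by GENCODE M21 on mm10. Over 6 ATAC-seq libraries of cultured adipocytes, 43198 of 709164 intervals met this rule. Merged over the libraries they formed 16044 regions, 8.24% of the 194615 merged regions of the series.

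Regulatory DNA can act on a promoter from a great distance, because loops of chromatin bring the distant segment close to the start site. Gene deserts are often found beside genes that control development, and some of them hold arrays of enhancers with tissue-specific activity. Other deserts are rich in repeats and hold few known regulatory elements. In adipocytes, enhancers are bound by PPARγ, C/EBP proteins, the glucocorticoid receptor, EBF and NFI proteins and AP-1.

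ATAC-seq inserts sequencing adaptors into DNA that is not wrapped in nucleosomes, so an interval marks accessible DNA. All cells were grown from the stromal vascular fraction, the non-fat cells of adipose tissue, of wild-type male C57BL/6J mice at 3 to 4 weeks of age, and were collected after 7 days of differentiation. The 2 beige and 2 white libraries came from inguinal fat, and the 2 brown libraries came from brown adipose tissue. All media held 5 μg/ml insulin and 0.5 mM isobutyl methylxanthine according to the labels, while the study's methods give lower insulin doses that differ between the beige and white media. The beige and brown media also held 5 μM dexamethasone, 1 nM T3 and 1 μM rosiglitazone, an activator of PPARγ, while the white medium held 1 μM dexamethasone without T3 and rosiglitazone. The study calls the ATAC-seq replicates biological, without describing the brown libraries, and the labels do not say whether replicates were separate cultures or animals. Tissue of origin and medium both differ between brown and white cells and cannot be told apart. Of 8 adipocyte marker genes, 7 or 8 had an interval within 1 kb of a start in every library, Lep being the gene open in brown replicate 1 alone. Of 6 brown depot markers, 4 or 5 were open in the beige and white libraries and 6 in both brown libraries, Ucp1 among the latter. Of 5 macrophage markers, Adgre1 and Cd68 were open in all 6 libraries and Csf1r, Ptprc and Itgam in none. Of 4 endothelial markers, Pecam1, Tek and Kdr were open in all 6 and Cdh5 in none, and of 5 skeletal muscle markers 0 to 2 were open. What part other cell types had in the desert regions was not tested.

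The sequences below reach 100 bases to each side of the summit in the region that ranked highest within its class, where a class is the set of libraries in which a region was open. For the class open in all 6 libraries, the region that ranked second is shown, and the highest is described further on without its sequence. They are printed 5′ to 3′ on the plus strand of mm10, to show what desert DNA of each class looks like. Capitals mark matches to the motif forms described further on, and a sequence in lower case throughout had no match to these forms.

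All 6 libraries, between Pcmtd1 and Sntg1 (chr1:7397838-7398038): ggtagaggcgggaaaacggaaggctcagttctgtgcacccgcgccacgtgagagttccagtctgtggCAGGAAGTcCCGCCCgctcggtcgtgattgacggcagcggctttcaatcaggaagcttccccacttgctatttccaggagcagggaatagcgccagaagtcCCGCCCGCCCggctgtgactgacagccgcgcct
Beige only, between Uaca and Tle3 (chr9:61046588-61046788): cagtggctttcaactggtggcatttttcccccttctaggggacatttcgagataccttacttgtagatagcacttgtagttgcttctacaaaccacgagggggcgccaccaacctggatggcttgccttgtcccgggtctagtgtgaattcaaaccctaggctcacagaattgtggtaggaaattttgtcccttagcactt
White only, between Flrt2 and Galc (chr12:97455741-97455941): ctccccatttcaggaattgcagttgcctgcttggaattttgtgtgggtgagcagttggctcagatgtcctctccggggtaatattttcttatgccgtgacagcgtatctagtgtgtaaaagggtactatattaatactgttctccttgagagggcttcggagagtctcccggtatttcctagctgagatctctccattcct
Brown only, between Cobl and Pom121l12 (chr11:12895263-12895463): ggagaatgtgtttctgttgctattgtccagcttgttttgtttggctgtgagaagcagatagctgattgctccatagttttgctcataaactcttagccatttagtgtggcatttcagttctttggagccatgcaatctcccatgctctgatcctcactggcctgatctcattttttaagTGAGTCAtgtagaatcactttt
Beige and white only, between Etnk1 and Sox5 (chr6:143500329-143500529): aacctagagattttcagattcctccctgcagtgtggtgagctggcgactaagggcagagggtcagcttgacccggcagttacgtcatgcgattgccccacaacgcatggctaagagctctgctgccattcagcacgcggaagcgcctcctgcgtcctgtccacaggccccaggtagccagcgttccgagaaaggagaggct
Beige and brown only, between Foxo1 and Cog6 (chr3:52747039-52747239): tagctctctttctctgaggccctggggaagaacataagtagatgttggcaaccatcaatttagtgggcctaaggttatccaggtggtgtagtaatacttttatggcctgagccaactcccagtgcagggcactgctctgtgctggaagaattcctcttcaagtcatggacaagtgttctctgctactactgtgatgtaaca
White and brown only, between Mdga2 and Rps29 (chr12:68877336-68877536): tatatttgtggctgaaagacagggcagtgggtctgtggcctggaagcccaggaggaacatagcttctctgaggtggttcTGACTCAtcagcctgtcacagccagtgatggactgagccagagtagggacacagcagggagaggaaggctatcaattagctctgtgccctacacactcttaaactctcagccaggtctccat

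The region open in all 6 libraries is the start of the long noncoding RNA gene Gm26901, with a GC content of 62.7%, 1 ETS match and 3 GGGCGG matches on the minus strand, of which a pair overlap. It ranked between percentiles 98.5 and 99.8 of the 6 lists by -log10 q, where percentile 100 is the strongest interval. The brown-only and the white-and-brown-only sequences each hold 1 AP1 match. The other 4 hold no exact match to any of the 12 forms. In the beige-only sequence ccacgagggggc differs from the CTCF form at 1 letter and was not counted.

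Deserts held fewer open regions than the rest of the genome. Sequence over 250 kb from every coding start made up 581.1 Mb, 21.95% of the determined bases of chromosomes 1 to 19, X and Y, and 42.6% of it was marked as repeat. It carried 27.6 regions per Mb against 86.4 regions per Mb elsewhere, which is 3.13-fold lower. For regions open in all 6 libraries the gap was wider, at 4.70 per Mb against 27.1 per Mb. The ratio of desert to other density was 0.320 for merged regions, while for the intervals of single lists it ran from 0.215 to 0.264. Leaving out any 1 library lowered the merged ratio, to between 0.289 and 0.318. It was 0.289 without brown replicate 2, a library treated below. Desert density ran from 24.9 per Mb on chromosome 6 to 46.5 per Mb on chromosome 13, with 4.34 per Mb on the X chromosome and 1 region on the Y chromosome in 31.6 Mb. Mappability was not given in the lists, and its part in these densities was not tested.

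Most desert regions lay between genes. Of the 16044 regions, 11953 (74.5%) had a summit between genes, 1849 (11.5%) in a long noncoding RNA gene, 2192 (13.7%) in an intron and 50 (0.312%) in an exon of a protein-coding gene. The last 2 groups lay deep inside 244 genes, the shortest of them 254.5 kb long, and so were far from any coding start without being outside genes. Wwox, which encodes an oxidoreductase with WW domains, held 58 of them. Macrod2, an ADP-ribose hydrolase gene, and Sox5, which encodes a transcription factor of cartilage and neurons, held 48 each. Gpc5, a glypican gene, held 44 and Plcb1, a phospholipase C gene, held 39. A start of a noncoding gene lay within 1 kb of 606 desert regions (3.78%). Of the 259 regions at starts of long noncoding RNA genes 30.1% were open in all 6 libraries, against 16.95% of the 15438 regions with no noncoding start nearby, and of the 196 at starts of pseudogenes 11.7% were.

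Desert intervals made up a similar small share of each list. There were 7336 of 118812 intervals (6.17%) in beige replicate 1, 7274 of 127490 (5.71%) in beige replicate 2, 7104 of 120473 (5.90%) in white replicate 1 and 7286 of 119385 (6.10%) in white replicate 2. In brown replicate 1 there were 6652 of 113861 (5.84%), and in brown replicate 2 there were 7546 of 109143 (6.91%, 95% Clopper-Pearson interval 6.76 to 7.07). Brown replicate 2 had the shortest list and the highest desert share, and the other 5 libraries lay between 5.71% and 6.17%. Over the 6 libraries the share was 6.11% ± 0.431 (SD, n = 6). The lists hold no read counts. The study states read numbers for the beige and white libraries, which were not used here, so no value was set against depth, and all intervals given here cover counting error only.

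Brown replicate 2 stood apart from the other libraries in its desert intervals. It held 2431 desert regions found in no other library, against 918 to 1474 in the other 5, and 34.3% of them lay in windows with over 50% of their bases marked as repeat, against 9.26% to 22.6%. In its desert windows 18.8% of bases were marked as repeat, against 11.7% to 14.0% in the other 5. In other distal windows, those over 1 kb and at most 250 kb from a coding start, its repeat share of 10.97% lay within the range of the others, 10.1% to 11.1%. Values without this library stand beside several of the results that move with it.

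Desert intervals were replicated less often than other intervals. Replication is the percent of intervals of a list overlapped by at least 1 base in the other library of the same condition. It was 69.9% and 69.4% in beige replicates 1 and 2, 63.8% and 61.6% in white and 62.9% and 56.5% in brown, against 85.5%, 76.6%, 73.6%, 73.1%, 73.9% and 79.1% of the other intervals in the same order. Desert intervals lay lower in 6 of 6 libraries, and the 2 sets of values did not overlap. The mean was 64% ± 5.05 (SD, n = 6 libraries) against 77.0% ± 4.76, a difference of -13.0 points ± 5.46. The exact two-sided sign-flip permutation test gave p = 0.0312, the smallest that 6 libraries allow, and adjusted p = 0.0362 over 22 differences. Without brown replicate 2 as the list that is counted, the difference was -11.03 points. Against other distal intervals, replicated at 73.8%, it was -9.79 points and lower in 6 of 6 (exact permutation test, adjusted p = 0.0362). The 2 libraries of a condition share their regions, so these p-values cover the spread between libraries only.

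Desert intervals also ranked lower by -log10 q, the strength of the peak call. Their median percentile was 33.5 and 38.3 in beige, 40.1 and 38.8 in white and 39.0 and 29.4 in brown, while the other intervals had medians of 50.7 to 51.5. The mean difference was -14.4 points ± 4.49 (SD, n = 6), lower in 6 of 6 (exact permutation test, adjusted p = 0.0362). It was -12.9 points without brown replicate 2. Against other distal intervals, with a mean of 46.2, it was -9.74 points (exact permutation test, adjusted p = 0.0362). The lists share many of their regions, so these p-values too cover the spread between libraries only. On average 2.52% of desert intervals reached the top 10% of a list, against 4.52% of other distal and 10.5% of all other intervals, and 15.5% fell in the bottom 10%.

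The lower rank was not seen by fold enrichment, the height of the summit over the local background. By this measure the desert median percentile was 44.6 and 48.8 in beige, 53.1 and 53.5 in white and 49.2 and 41.4 in brown. It lay above the other intervals in both white libraries, by 3.23 and 3.70 points, and below them in both beige and both brown libraries. The mean difference was -1.71 points ± 5.09 and did not pass the test (exact permutation test, p = 0.469, adjusted p = 0.516). The median fold itself was 4.49 ± 0.415 in desert and 4.599 ± 0.484 in other intervals, while the median -log10 q was 7.28 ± 1.33 and 10.95 ± 1.61 (SD, n = 6). Other distal intervals had fold percentile medians of 48.3 and 48.8 in beige, 47.2 and 48.1 in white and 47.4 and 47.5 in brown. Desert intervals lay above these in both white libraries and brown replicate 1. They lay below them in beige replicate 1 and brown replicate 2, and level in beige replicate 2. The means were 48.4 in desert and 47.9 in other distal intervals.

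**Figure D1:**
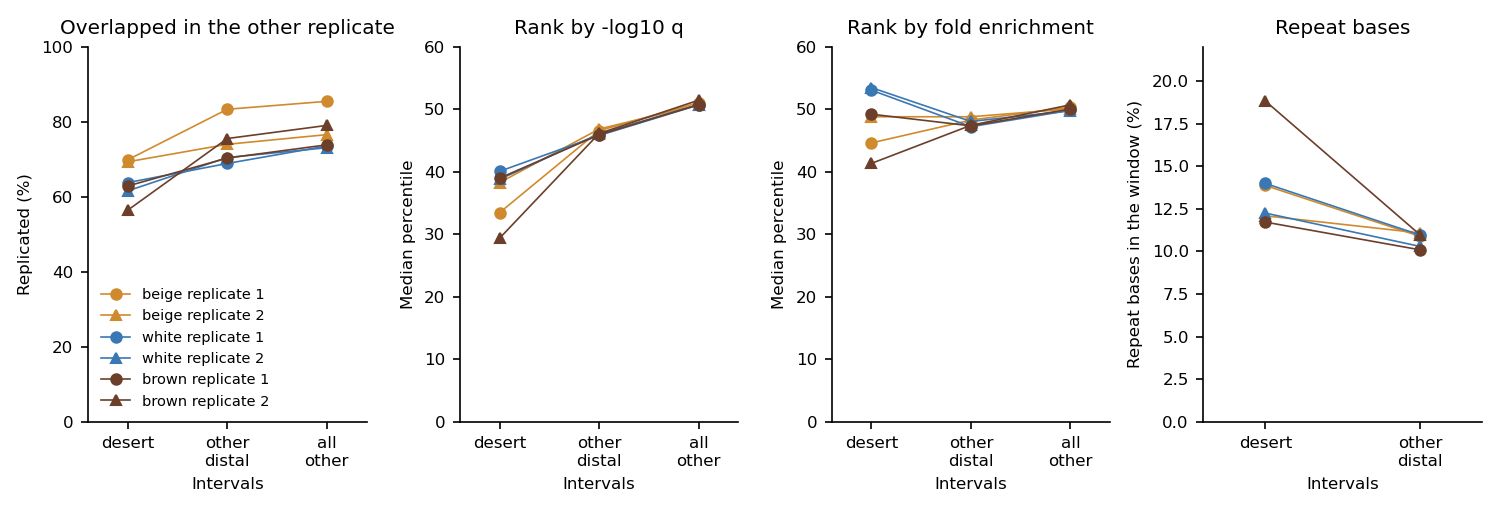
Values of the 6 libraries (beige, white and brown, circles for replicate 1 and triangles for replicate 2) in desert, other distal and all other intervals, with lines joining a library: percent replicated, median percentile by -log10 q, median percentile by fold enrichment and percent of repeat bases in the window around the summit. All 6 lines rise from desert to other intervals for replication and for -log10 q, the white lines fall for fold enrichment, and brown replicate 2 has the highest desert repeat share, 18.8%.

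The difference in replication was widest among weak intervals. In the lowest decile of the lists 26.1% of desert intervals were replicated against 32.7% of other distal intervals, in the second decile 34.6% against 42.5%, and in the fifth 76.3% against 79.1%. From the seventh decile upward both sets lay between 96.1% and 100%. With the other distal intervals reweighted to the ranks of the desert intervals, their replication was 68.1% and the difference shrank to -4.14 points ± 3.35, lower in 5 of 6 libraries and no longer past the threshold (exact permutation test, p = 0.0625, adjusted p = 0.0655). It ran from 0.0580 in beige replicate 2 to -8.55 in brown replicate 2.

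Replication and rank fell with distance without a step at 250 kb. The mean replication was 88.8% at up to 1 kb from a start, 76.1% at 1 to 10 kb, 69.2% at 200 to 250 kb, 66.9% at 250 to 300 kb and 54.5% at 750 to 1000 kb, with 56.0% beyond. The median percentile fell from 74.9 at up to 1 kb to 49.99 at 1 to 10 kb, 39.6 at 200 to 250 kb and 32.9 beyond 1000 kb. Just outside the limit, at 240 to 250 kb, 2559 intervals were replicated at 68.9% ± 5.66 (SD, n = 6), and just inside, at 250 to 260 kb, 2341 were replicated at 67.5% ± 4.16. The desert regions had a median distance of 399.5 kb to the nearest start, and 1182 of them lay over 1 Mb away. In the most distant intervals the libraries spread apart, and brown replicate 2 lay lowest for replication.

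**Figure D2:**
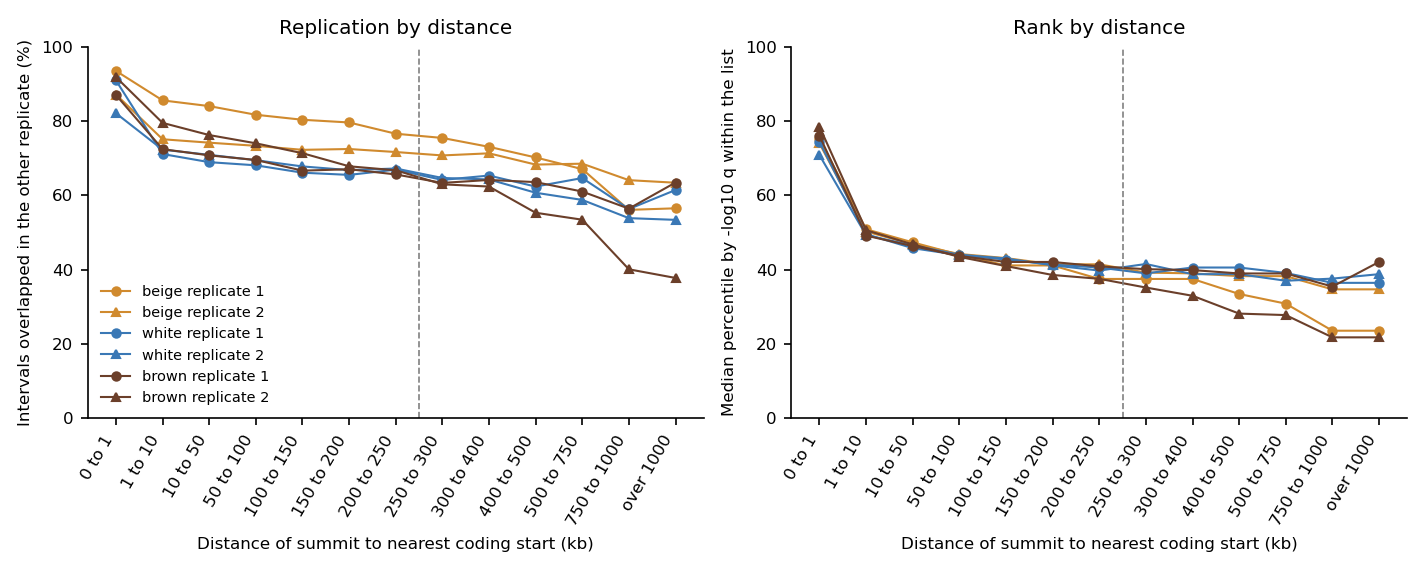
Percent of intervals replicated (left) and median percentile by -log10 q (right) against the distance of the summit to the nearest protein-coding start in 13 bins (kb), 1 line per library, with the 250 kb limit as a dashed line. Mean replication falls from 88.8% in the nearest bin to 54.5% at 750 to 1000 kb and is 56.0% beyond, the mean of the median percentiles likewise falls to 31.6 and is 32.9 beyond, and the lines cross the limit without a jump.

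Fewer desert regions were open in every library. All 6 libraries had an interval in 2730 desert regions, 17.02% (95% Clopper-Pearson interval 16.4 to 17.6), while over all regions of the series the share was 30.2% and over other distal regions 26.5%. A single library held 8372 desert regions, 52.2%, against 37.2% of all regions and 38.7% of other distal regions. A further 3948 desert regions (24.6%, against 25.9% of all regions) were open in some other mixture of libraries. Counted per library, 39.6% ± 1.72 of desert intervals were overlapped in all 5 other libraries against 49.7% ± 3.65 of other distal intervals, and 19.2% ± 6.96 were found in no other library against 11.4% ± 2.90 (SD, n = 6). Both differences went the same way in 6 of 6 libraries (exact permutation test, adjusted p = 0.0362 for each). These 2 tests were added after values had been seen. Their 6 values are not independent, because a region open in all libraries is counted in each list. Being found alone likewise depends on the other 5 lists, so these p-values cover the spread between libraries only. Brown replicate 2 had the highest share found alone, 32.2%, and without it the desert mean was 16.6%. For intervals overlapped in all 5 other libraries the difference was -10.1 points. It was -8.775 points without brown replicate 2 as the list that is counted.

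Regions open in both libraries of some conditions and in no library of the others were few. Beige-only desert regions numbered 247 (1.54%, against 1.94% of all regions), white-only regions 207 (1.29%, against 1.22%) and brown-only regions 177 (1.10%, against 0.877%). Beige and white without brown shared 168 (1.05%, against 1.16%), beige and brown without white 139 (0.866%, against 1.25%) and white and brown without beige 56 (0.349%, against 0.243%). In deserts the beige-only count was 1.19 times the white-only count and 1.395 times the brown-only count, while in other distal regions the ratios were 1.62 and 2.25. The order of these counts changed with the processing. With each list held to its strongest intervals, as many as the shortest list has, 154 desert regions were beige-only, 191 white-only and 219 brown-only. Rebuilt from windows with at most 10% repeat bases, 139 were beige-only, 155 white-only and 102 brown-only. An exact permutation of 2 libraries against 2 cannot give a two-sided p under 0.333, and no test between conditions was made.

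**Figure D3:**
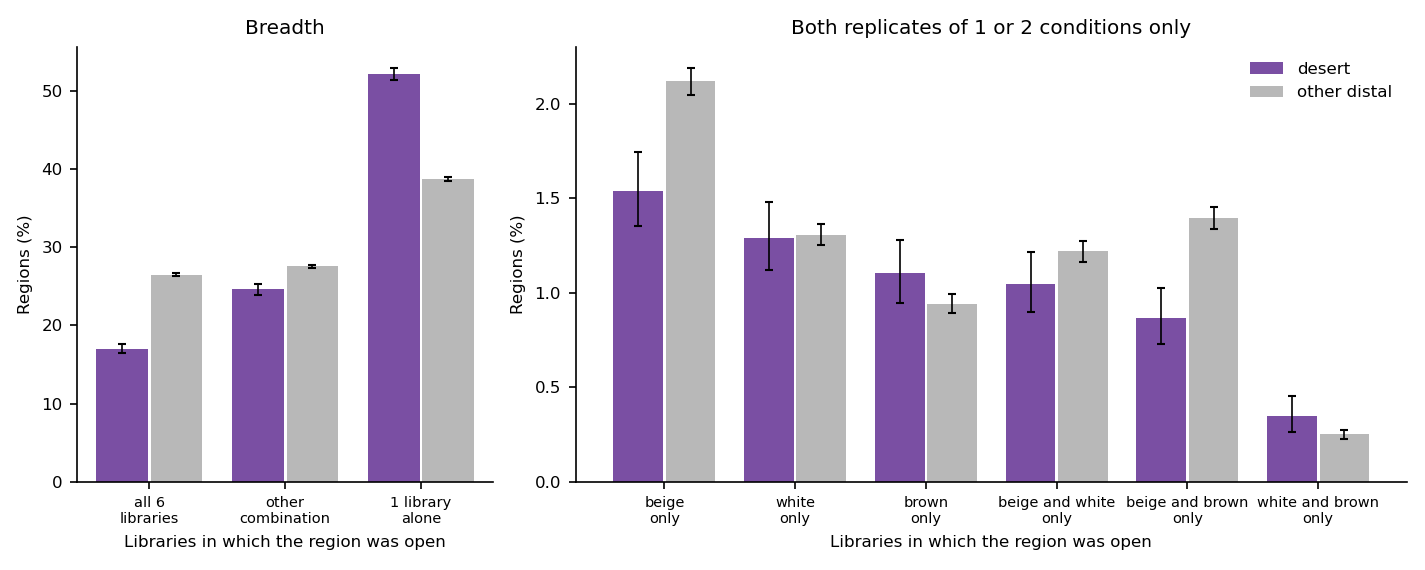
Percent of desert (purple) and other distal (grey) regions by the libraries in which they were open, with 95% Clopper-Pearson intervals as error bars that cover counting error only. Desert bars are lower for all 6 libraries (17.02% against 26.5%) and higher for 1 library alone (52.2% against 38.7%), and the bars of 1 or 2 conditions reach at most 2.12%.

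Pairs of libraries shared fewer desert regions than other distal regions. The Jaccard index, shared regions as a percent of all regions of a pair, was 53.2% for the beige replicates, 45.6% for the white and 42.0% for the brown in deserts, against 64.5%, 53.5% and 57.7% in other distal regions. The 12 pairs across conditions ran from 35.2% to 50.3% in deserts and from 48.7% to 59.5% in other distal regions. In both sets the beige replicates lay above the range, and the white and brown replicates within it. The lowest values in deserts, from 35.2% to 39.2%, were those of brown replicate 2 with the beige and white libraries.

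The strongest desert regions were open in all 6 libraries. Only 10 desert regions reached percentile 99 of any list, and all 10 were open in every library. A region of 374 bp between Mc2r, the adrenocorticotropin receptor gene, and Tcf4, a helix-loop-helix factor gene, on chromosome 18 ranked between 99.8 and 100 by -log10 q. Its fold enrichment was 36.6 and 38.9 in beige, 37.0 and 28.3 in white and 31.6 and 30.2 in brown. In both beige libraries and white replicate 1 no interval of the genome had a higher fold, and in the other 3 libraries 1 or 2 did. It lay 262.8 kb from the nearest start, and 15.9% of its window was marked as repeat.

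The next strongest were wider. The Gm26901 start at chr1:7397565-7398515, whose summit sequence is printed above, had folds of 11.98 to 17.6. A region in Pvt1, a long noncoding RNA gene beside the growth regulator Myc, lay at chr15:62328181-62328959, ranked at 96.7 to 99.3 and held an AP1 and a CEBP match. A region in the noncoding gene 1700060C16Rik at chr6:143640409-143641222, between Etnk1 and Sox5, ranked at 95.5 to 98.5 with the same 2 matches. No desert window held a 30-base stretch of the mitochondrial genome.

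Regions at starts of noncoding genes included further strong ones. After Gm26901, the highest were at Gm48703 in the gap between Eci2 and Cdyl (92.7 to 95.9), at the pseudogene Gm12518 in the gap beside Klf4 (92.3 to 98.9), at Gm16476 with Gm48693 and Gm49700 in the gap between Gm21863 and Asap2 (90.7 to 97.2) and at Gm37136 in an exon of Naaladl2 (90.6 to 93.8). They were picked among regions open in all 6 libraries, so that trait is not a result. Transcription of these genes was not measured here.

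Regions of 1 condition ranked lower than those open everywhere. The highest beige-only region, at chr9:61046568-61046975 in the noncoding gene Gm33699 between Uaca and the corepressor gene Tle3, had a -log10 q of 24.4 and 32.9 and percentiles of 70.9 and 74.7. The 2 next were at chr1:140661309-140661721, 415.4 kb from Kcnt2, and at chr6:101650477-101650664, 272.7 kb from Pdzrn3, with lowest percentiles of 58.5 and 56.6. The highest white-only region, at chr12:97455661-97456328 between the adhesion gene Flrt2 and Galc, a lysosomal galactosidase gene, had percentiles of 58.2 and 60.5. It was followed by chr11:93629801-93630118, 255.8 kb from Utp18, with 71.6% repeat bases, and by chr14:23290542-23290958 in an intron of the potassium channel gene Kcnma1. The highest brown-only region, at chr11:12895180-12895523 beyond Cobl, an actin nucleator gene, had a -log10 q of 28.4 and 16.9. The 2 next lay at chr8:26669579-26669967, 307.6 kb from Zfp703, with a TEAD match, and at chr1:96301277-96301646, 570.7 kb from Slco4c1.

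The same held for regions of 2 conditions. The highest open in beige and brown, at chr3:52746876-52747299 in the noncoding gene Gm2447 between Foxo1, an insulin-regulated transcription factor gene, and Cog6, had -log10 q values of 18.03, 24.2, 27.7 and 15.7 in beige 1 and 2 and brown 1 and 2. It was followed by chr3:21761885-21762325, 314.6 kb from Tbl1xr1, and by chr13:28519788-28520630, 433.7 kb from Sox4, with a CEBP match. The highest open in beige and white, at chr6:143500141-143500549 in the gap between Etnk1 and Sox5, ranked at 58.2 to 67.6, ahead of chr1:112388863-112389116, 524.1 kb from Dsel, and chr1:169158181-169158432, 364.1 kb from Nuf2. The highest open in white and brown, at chr12:68877139-68877578, 281.8 kb from Rps29, ranked at 50.7 to 67.9, ahead of a region 337.0 kb from Zfp608 and one at chr3:38193936-38194386, 261.3 kb from Ankrd50. A -log10 q is relative to its own library and was not compared between conditions.

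The number of desert regions varied widely between gaps. The genome held 1003 gaps between neighbouring coding starts with sequence over 250 kb from both, and 842 of them held a desert region. The median of these 842 was 13 regions, and 163 gaps, with 41.3% of desert sequence, held 50% of all desert regions. The gap between Zeb2, a zinc-finger repressor gene, and Acvr2a, an activin receptor gene, held the most, 130 regions in 3.20 Mb, of which 48 were open in all 6 libraries. The gap between the protocadherin genes Pcdh20 and Pcdh9, the longest at 4.91 Mb, held 125, of which 19 were open in all 6. The gap between Myc and the gasdermin gene Gsdmc held 97 in 1.32 Mb, of which 31 were open in all 6, 5 beige-only, 5 white-only, 5 beige and brown only and 0 brown-only.

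Next came Slc10a2 to Efnb2 with 86, Nmbr to Cited2 with 85 and Adgrl2 to Adgrl4 with 84, followed by Epha7 to Map3k7 and Olfm4 to Pcdh17 with 76 each and Sel1l to Flrt2 and Tenm3 to Aga with 75 each. These include an ephrin ligand, an ephrin receptor, adhesion receptors and a teneurin, proteins that neurons use for guidance and contact. The share open in all 6 libraries ran from 13.2% in the Olfm4 to Pcdh17 gap to 36.9% in the Zeb2 to Acvr2a gap. Together the 10 gaps held 5.67% of desert regions in 5.33% of desert sequence.

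Per Mb of desert sequence the order was different. Among 506 gaps with at least 10 regions the density ran from 5.91 to 253.8 per Mb. The densest was Fn1 to Mreg, beside the fibronectin gene, with 15 regions in 0.0591 Mb, 6 of them open in all 6 libraries. It was followed by Arl15 to Ndufs4 at 182.0 per Mb, Gadd45g to Diras2 at 178.8, Tbc1d1 to Klf3 at 178.1 and Foxo1 to Cog6 at 172.8 with 43 regions, 15 of them open in all 6. Tbc1d1 encodes a regulator of glucose transporter traffic, and Ndufs4 a subunit of respiratory complex I. Each of these 5 gaps holds at most 0.249 Mb of sequence past the limit. The sparsest was Ywhaq to Gm10330, with 11 regions in 1.86 Mb.

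**Figure D4:**
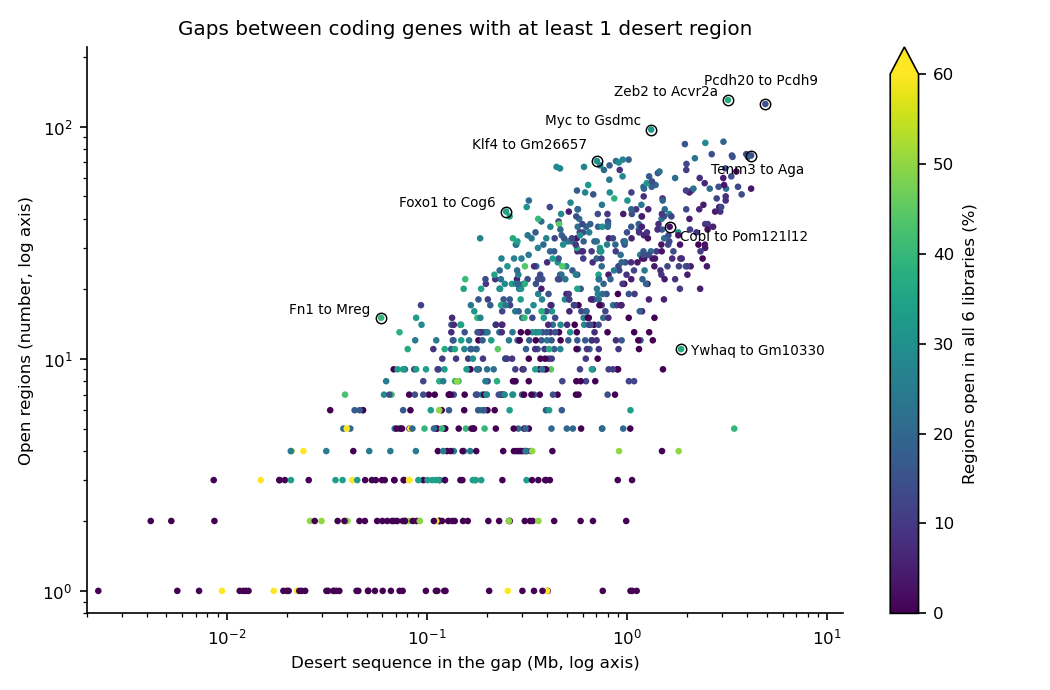
Number of desert regions against the amount of desert sequence in Mb (both log axes) for the 842 gaps with at least 1 region, coloured by the percent of regions open in all 6 libraries, with values over 60% in the top colour. Gaps of similar length differ widely: Myc to Gsdmc held 97 regions in 1.32 Mb and Cobl to Pom121l12 held 37 in 1.63 Mb.

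Regions of 1 condition were spread thinly over the gaps. For white-only regions the Zeb2 to Acvr2a gap led with 6, then Myc to Gsdmc with 5 and Kcnj2 to Sox9 with 4. For beige-only regions Myc to Gsdmc led with 5, then Adgrl2 to Adgrl4 and Celf2 to Gata3 with 4 each. For brown-only regions Myom2 to Csmd1 led with 5, then Cobl to Pom121l12 and Wac to Fzd8 with 4 each, and in the gap beside Cobl 1 of 37 regions was open in all 6 libraries. For beige and white only, Pcdh20 to Pcdh9 held 5, Sorcs3 to Sorcs1 held 4 and Pabpc4l to Pcdh18 held 3. Beige and brown only led in Myc to Gsdmc with 5, with 3 each in Celf4 to Pik3c3 and Mpdz to Nfib. White and brown only led in Slc4a3 to Epha4 with 3, with 2 each in Ebf1 to Clint1 and Gpc5 to Gpc6.

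The genes that bound the gaps included many of 2 gene lists. Of 1396 genes at gap ends, 73 (5.23%) were on a list of developmental transcription factors, which makes up 1.38% of 21911 coding genes. Another 114 (8.17%) were on a list of neuronal adhesion and synapse genes, which makes up 1.56%. The 88 gaps with a listed transcription factor at an end had a median density of 53.4 regions per Mb, and 20.5% of their regions were open in all 6 libraries. The 748 gaps without one had 31.4 per Mb and 16.5%. The 159 gaps with a neuronal gene had 23.6 per Mb and 13.2%, against 39.1 per Mb and 18.2% in the 677 without one. The gaps with a neuronal gene were also longer, with a median of 0.661 Mb of desert sequence against 0.330 Mb. Those with a listed transcription factor were shorter than the rest, with 0.330 Mb against 0.385 Mb. The part of length in these values was not tested. These are counts and medians without a test.

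After Zeb2 to Acvr2a, the gaps with a listed transcription factor gene and the most regions were spread over several families. Nr2f1, an orphan nuclear receptor gene, bounded a gap to Arrdc3 with 73 regions at 33.4 per Mb. Klf4 to Gm26657 held 71 at 100.3 per Mb, 21 of them open in all 6 libraries. Celf2 to Gata3, beside a zinc-finger factor gene that restrains adipocyte differentiation, held 69 at 34.8 per Mb. Ebf1, an early adipocyte factor gene, bounded a gap to Clint1 with 68 regions at 92.5 per Mb, 19 of them open in all 6. Id2 to Rnf144a held 68 at 83.1 per Mb, Med13l to Tbx3 67 at 109.8, Wwox to Maf 65 at 84.7 and Tmem182 to Pou3f3 56 at 40.3. The body of Wwox held 58 desert regions and that of Ebf1 held 22, so these 2 gaps lay in part inside genes. Ets1 to Kirrel3, beside the gene of the ETS factor that the study examined, held 61 at 47.3 per Mb, of which 10 were open in all 6, 1 was white-only, 1 brown-only and 0 beige-only.

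Desert intervals were narrower and less rich in GC than other distal intervals. Their median width was 230 bp ± 12.8 against 244 bp ± 8.74, a difference of -14 bp that ran from -31 in brown replicate 2 to -7. In the windows around the summits GC content was 46.4% ± 0.966 against 50% ± 0.517, and CpG dinucleotides numbered 2.12 ± 0.0645 against 3.38 ± 0.0713 per window. Repeat bases made up 13.8% ± 2.65 against 10.7% ± 0.414 (SD, n = 6 libraries). Each of the 4 differences went the same way in 6 of 6 libraries (exact permutation test, adjusted p = 0.0362). Many of the windows are shared between lists, so the 6 values are not independent. The repeat difference of 3.08 points was 2.12 without brown replicate 2, and its call was lost at a distance of 100 kb (exact permutation test, adjusted p = 0.164). The width difference was -1.75 bp at a q value under 0.00001 and no longer called (exact permutation test, adjusted p = 0.531).

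The windows were searched on both strands for 12 motif forms. AP1 was TGANTCA, CEBP was TTGCNNAA, RUNX was TGTGGTTT, TEAD was GGAATGT, ETS was CCGGAAGT or CAGGAAGT, SP was GGGCGG and CRE, bound by CREB, was TGACGTCA. NFI was TTGGC and GCCAA 5 bases apart, EBF was TCCC and GGGA 2 bases apart, DR1, the element of PPARγ with its partner RXR, was a pair of AGGNCA 1 base apart, and GR was GNACA and TGTNC 3 bases apart. CTCF stands for a 12-letter core of the site bound by the insulator protein CTCF. Matches of different forms can share bases. Over all 709164 windows of the series the share with a match was 22.9% for AP1, 15.1% for SP, 12.9% for CEBP, 4.42% for TEAD, 3.77% for CTCF, 3.75% for ETS, 1.93% for RUNX, 1.46% for EBF, 0.831% for CRE, 0.635% for GR, 0.405% for DR1 and 0.0653% for NFI. A match is a run of letters and not a bound site.

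CTCF matches were less frequent in deserts. They occurred in 2.399% and 2.72% of desert windows in beige, 1.75% and 2.10% in white and 1.86% and 1.67% in brown. In other distal windows they occurred in 3.96% to 5.27%, so the 2 sets did not overlap. The difference of -2.54 points ± 0.252 was lower in 6 of 6 libraries (exact permutation test, adjusted p = 0.0362). It was -2.401 points with the other windows reweighted to the GC content of desert windows (exact permutation test, adjusted p = 0.0430). By distance, the mean share had already fallen before the limit, without a step at 250 kb. It was 5.29% at 10 to 50 kb, 2.41% at 200 to 250 kb and 2.42% at 250 to 300 kb.

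A further 5 forms were also lower. SP matched 3.32% ± 0.217 of desert against 7.57% ± 0.233 of other distal windows, CRE 0.328% ± 0.0776 against 0.581% ± 0.0667, ETS 2.73% ± 0.252 against 3.19% ± 0.134, DR1 0.289% ± 0.0281 against 0.483% ± 0.0360 and GR 0.641% ± 0.0242 against 0.744% ± 0.0652 (SD, n = 6). All 5 were lower in 6 of 6 libraries (exact permutation test, adjusted p = 0.0362). With reweighting to GC the ETS difference shrank to -0.199 points and was no longer past the threshold (exact permutation test, adjusted p = 0.0724), while the other 4 stayed past it at an adjusted p of 0.0430. ETS also lost its call with 50 bases to each side of the summit (exact permutation test, adjusted p = 0.103). GR lost its call at equal list length (exact permutation test, adjusted p = 0.0655) and at a q value under 0.00001 (adjusted p = 0.0724 in the exact permutation test), and at a distance of 100 kb it was higher by 0.0634 points in 6 of 6 libraries (exact permutation test, adjusted p = 0.0344). In windows with at most 10% repeat bases the DR1 difference was 0.00594 points (exact permutation test, p = 0.906).

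AP1, CEBP and RUNX forms were more frequent in deserts. AP1, bound by the FOS and JUN factors, matched 32.8% and 34.8% of desert windows in beige, 33.3% and 30.7% in white and 38.3% and 28.5% in brown, with a mean of 33.1% ± 3.37 against 26.5% ± 1.82 in other distal windows. CEBP, the form of the factors that drive adipocyte differentiation, matched 18.1% ± 1.82 against 14.2% ± 0.701, and RUNX 2.77% ± 0.209 against 2.19% ± 0.106 (SD, n = 6). All 3 were higher in 6 of 6 libraries (exact permutation test, adjusted p = 0.0362). The AP1 difference was 6.52 points, and 7.42 without brown replicate 2. For CEBP it was 3.835 points, and 4.275 without that library. By distance, the mean AP1 share had already risen before the limit. It was 25.97% at 10 to 50 kb, 31.5% at 200 to 250 kb and 31.7% at 250 to 300 kb. After reweighting to GC the AP1 difference was 3.01 points and the CEBP difference 0.936 points, each higher in 5 of 6 libraries and not past the threshold (exact permutation test, adjusted p = 0.0724), and RUNX stayed higher by 0.186 points (exact permutation test, adjusted p = 0.0430). At a distance of 500 kb RUNX was higher by 0.277 points in 5 of 6 libraries and its call was lost (exact permutation test, adjusted p = 0.164). TEAD at 5.37% against 4.99%, EBF at 1.39% against 1.61% and NFI at 0.0764% against 0.0744% did not pass the test. TEAD was higher in 5 of 6 libraries and lower in brown replicate 2 (4.996% against 5.05%).

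**Figure D5:**
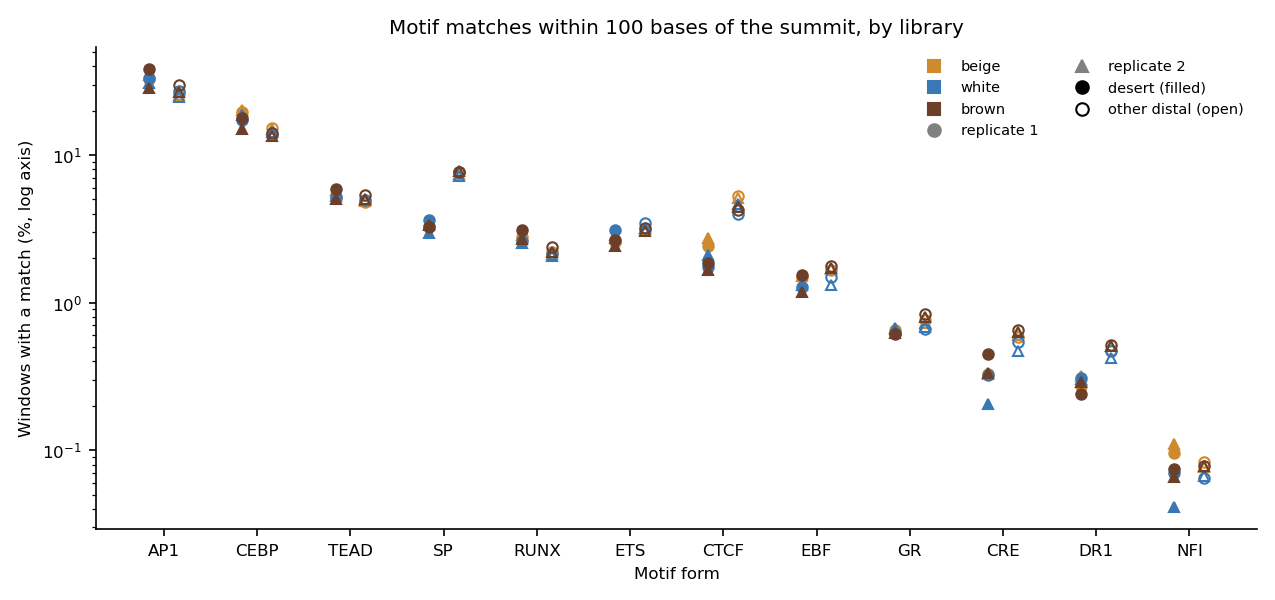
Percent of windows of 100 bases to each side of the summit with a match to each of 12 motif forms (log axis) in desert (filled) and other distal (open) intervals, 1 point per library. All desert points lie above the open ones for RUNX and below them for SP, CTCF, DR1 and CRE. The ranges of the 2 sets overlap for AP1, CEBP, TEAD, ETS, EBF, GR and NFI.

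Within deserts the motif content differed between the classes of regions, given here as counts without a test. AP1 matched 43.2% of the 2730 regions open in all 6 libraries and 16.1% of the 8372 found in a single library, whose windows held 26.0% repeat bases against 9.17%. CTCF matched 18 of 247 beige-only regions, 7.29% (95% Clopper-Pearson interval 4.38 to 11.3), and 0 of 207 white-only and 0 of 177 brown-only regions, which allow shares of up to 1.45% and 1.69% at a limit of 3 counts (the upper Clopper-Pearson bounds are 1.77% and 2.06%). In other distal regions the shares were 7.99%, 0.692% and 0.411%, in the same order. Of the 18 beige-only matches, 15 lay in windows with over 10% repeat bases, and when all intervals in such windows were left out and the regions rebuilt, 2 of 139 beige-only regions matched (1.44%).

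Brown-only regions held fewer CEBP and more AP1 and TEAD matches than beige-only and white-only regions in the counts. CEBP matched 14 of 177 brown-only regions, 7.91% (4.39 to 12.9), against 23.1% (18 to 28.8) of beige-only and 19.3% (14.2 to 25.4) of white-only regions, and 27.3% of the 139 open in beige and brown. At a q value under 0.00001 the brown-only share was 16.4% of 128 regions, and at equal list length it was 11.4% of 219, against beige-only shares of 19.2% and 20.8% and white-only shares of 24.3% and 20.4%. Rebuilt from windows with at most 10% repeat bases, the CEBP share was 12.7% (6.96 to 20.8) of 102 brown-only regions. It was 23.7% (16.9 to 31.7) of beige-only and 16.1% (10.7 to 22.9) of white-only regions. In other distal regions CEBP matched 9.94% of brown-only, 16.1% of beige-only and 13.8% of white-only regions, so the order was the same outside deserts. TEAD matched 19 of 177 brown-only regions, 10.7% (6.59 to 16.3), against 5.26% (2.83 to 8.83) of beige-only and 5.80% (3.03 to 9.91) of white-only regions, and these intervals overlapped. In other distal regions the brown-only, beige-only and white-only TEAD shares were 6.85%, 3.23% and 5.49%. RUNX matched 13 of the 177 brown-only desert regions, 7.34% (3.97 to 12.2), against 2.02% and 1.45% (in other distal regions 2.95% of brown-only, 1.52% of beige-only and 1.88% of white-only regions), and 3 of 102 (2.94%) when rebuilt from windows with at most 10% repeat bases. Every brown-only region needs an interval in brown replicate 2, the library with the highest desert repeat share.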

How the data were processed

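Lists of ATAC-seq peaks came from 6 libraries, with 2 for each of beige, white and brown adipocytes. According to the study's methods and the labels, the authors trimmed adaptors (Trimmomatic 0.36), aligned to mm10 (BWA 0.7.17) and called peaks per library (MACS2 2.2.8, q under 0.05). The deposited fold enrichment is a ratio over local background, the deposited -log10 p and -log10 q are those of the summit, and the deposited integer score was not used. The deposited starts, ends and offsets gave positions.

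An interval with several summits was counted once, at the summit of highest -log10 q. Distances were taken to starts of protein-coding transcripts of GENCODE M21, sequence and repeat marks from GRCm38. Regions were merged over libraries, an overlap of 1 bp counting as shared. Desert minus compared values were tested over 6 libraries by exact two-sided sign-flip permutation with Benjamini-Hochberg adjustment over 22 differences at 0.05. In this exact permutation test an adjusted p of 0.0362 stands for p = 0.0312, the smallest that 6 libraries allow. The 6 lists share many regions, so the values of a test are not independent. The functions were tested on simulated data. Named regions were the highest by lowest percentile, 5 open in all 6 libraries (1 is not reported here) and 3 of each other class, with sequences for the highest of each class (none from chromosome 18). Named gaps were the 10 with most regions, the 5 densest and the 3 with most of each class. Named genes were the 5 hosts ranked highest and the 5 noncoding starts ranked highest among regions open in all 6 libraries. The 10 gaps with most regions beside listed transcription factors, the sparsest gap and the motif shares by class were chosen after values had been seen. Members and lists were chosen with earlier results of these data known. Alternatives were the distance, q threshold, list length, start set, gene bodies, autosomes, repeats, overlap, comparison set, rank measure, window and each library. Tests were run in scipy 1.17.1 and tables made with pandas 2.3.3 and numpy 2.4.6, under Python 3.11.15, with figures from matplotlib 3.10.9. Sequencing depth, transcription and binding data were not used here.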

Additional observations from a re-analysis of the deposited data

Results flagged for a closer look

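The median percentile of desert intervals by fold enrichment lay above that of other intervals in both white libraries (3.23 and 3.70 points, mean 3.46) and below it in both beige (-5.73 and -1.26) and both brown libraries (-0.820 and -9.38). The libraries of these conditions moved in opposite directions, and the difference between conditions was not tested. Against other distal intervals only the white part of this split was kept in both libraries. Brown replicate 1 then lay above (49.2 against 47.4), and beige replicate 2 was level at 48.83. The share of windows with an NFI match was higher in desert than in other distal intervals in both beige libraries (0.0954% against 0.0827% and 0.110% against 0.0766%, a mean difference of 0.0230 points) and lower in both brown libraries (0.0752% against 0.0780% and 0.0663% against 0.0777%). These shares rest on 7 and 8 desert windows in beige and 5 and 5 in brown, and the difference between conditions was not tested.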

How the results depend on the processing

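The lower replication of desert intervals kept its direction and call at 100 and 500 kb, at stricter q values, at equal list length, on autosomes, outside gene bodies and with few repeats, and so did the lower rank by -log10 q. Replication lost its call when ranks were matched (-4.14 points), and rank by fold enrichment (-1.71 points). The repeat difference lost its call at 100 kb (0.878 points) and in windows with at most 10% repeat bases (0.0633 points, by construction), and the width difference at a q value under 0.00001 (-1.75 bp). The number of forms called higher was 5 at 100 kb and 1 after reweighting to GC, against 3. The percent of desert regions open in all libraries was 20.4 at 100 kb, 13.5 at 500 kb, 24.3 at q under 0.00001, 18.7 at equal list length, 15.7 with few repeats and 9.30 where an interval had to cover 50% of the region. The percent open in 1 library was 46.9, 58.8, 35.3, 49.4, 47.2 and 55.1 in the same order, and 51.3 at q under 0.01. The density ratio was 0.409 at 100 kb, 0.244 at 500 kb and 0.249 at q under 0.00001. The direction turned for NFI (-0.0164), EBF (0.00557) and GR (0.0634) at 100 kb, for NFI outside gene bodies (-0.00167), for TEAD at 500 kb (-0.0889) and after reweighting to GC (-0.0393), for DR1 with few repeats (0.00594), and for NFI without beige replicate 1 (-0.000186) or 2 (-0.00433), where leaving out each library gave -0.00433 to 0.00747. Other causes were not tested.

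Leaving out 1 library, the replication difference was -14.1 to -11.0 points, the percentile difference -15.2 to -12.9, width -15.4 to -10.6 bp, GC -3.81 to -3.55, CpG -1.27 to -1.25 and repeat bases 2.12 to 3.49. No test can then pass, since 5 libraries allow no p under 0.0625 and 4, as for replication, none under 0.125, so 0 forms were called higher and 0 lower. The percent open in all libraries left was 18.3 to 22.1, in 1 library 35.8 to 44.3, and the density ratio 0.289 to 0.318. No paired analysis was possible because the replicate numbers would pair libraries of different conditions and no test between conditions was made, the tests here being of differences within each library. The alternative in which an interval counts if 50% of it lies within its region holds for every interval and was not run. No value was set against sequencing depth, so regions missed for lack of reads were not told from closed ones.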
